A study of Homo sapiens with 6 samples.

Results

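The genes described here encode 10 proteins that are used to mark stem-like cells in breast tumours and in the mammary gland: CD24, CD44, PROM1, ALDH1A1, ALDH1A2, ALDH1A3, EPCAM, PROCR, THY1 and MME. They were chosen by name, with earlier results of this same comparison known, among them the lower signal of CD24 on the arrays labelled transfected. Their differences between the groups are therefore given as a description, with no p-value. All 10 genes had probe sets on the array, 32 of the 54613 tested, and none of the 32 names a further gene. RNA came from MDA-MB-436, an established triple-negative human breast tumour cell line. The 3 arrays of the first group are labelled wild type, and the 3 of the second are labelled NF1-C2S transfected. The series record describes the latter as stable transfectants of an NF1-C2 expression plasmid, and their condition label reads overexpressing NF-C2. These names refer to nuclear factor I-C (gene NFIC), a DNA-binding protein. Whether they all mean the same form of it is not stated in the sources used here. Both groups grew in RPMI-1640 medium with serum, antibiotics and insulin. The labels name no cells with an empty plasmid, and the sources used here do not say whether the transfected cells were 1 clone or a pool. Nothing in the labels ties the replicates to separate cultures. The p-values given below for other genes therefore measure only the spread between these arrays, which may be technical.

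CD24 is a small, heavily glycosylated protein held on the cell surface by a glycosylphosphatidylinositol (GPI) anchor, and CD44 is the main surface receptor for hyaluronan. In breast tumours the surface profile of high CD44 with low or absent CD24 is the classical stem-like profile, and it is common in lines with mesenchymal features. The second classical marker is the activity of ALDH1 enzymes, which oxidize retinaldehyde to retinoic acid. In breast tumour cells ALDH1A3 and ALDH1A1 are the forms most often tied to that activity. The remaining genes mark mammary progenitor or stem-like populations in flow cytometry: EPCAM, PROCR, THY1 (CD90), MME (CD10) and PROM1 (CD133).

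The deposited values are log2 expression values, with a median of 4.82 over all probe sets tested. Values under that median are treated here as close to background, where differences are compressed. Correlations between arrays were 0.992 to 0.997 within groups and 0.971 to 0.976 between groups. The 4 probe sets of NFIC, the gene of the factor, did not move one way. The brightest, 226895_at, gave 8.40, 8.49 and 8.52 on the wild type arrays and 8.22, 8.23 and 8.30 on the transfected ones. The probe set 226377_at gave 5.10, 5.12 and 5.58 against 5.34, 5.35 and 5.76, which overlap, although each transfected array was above the wild type array of the same number. No NFIC probe set passed the threshold (limma adjusted p = 0.082 for 226895_at and 0.466 for 226377_at). With the replicate number as a block 213298_at passed it and was lower (-0.51, adjusted p = 0.042), while 226377_at did not (0.22, adjusted p = 0.091). The sources used here do not say whether the plasmid's insert holds the stretch these probe sets read. The groups are therefore known from the labels alone.

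The RefSeq promoter windows (GRCh38.p14) of 4 members with clear differences between the groups are printed because the transfected factor binds DNA. Nuclear factor I recognizes a palindrome with arms TTGGC and GCCAA, separated by 5 bases. Each window runs from 250 bases before to 50 bases after a transcript start, and capitals mark an arm on either strand. The windows lie at chr6:106975578-106975877 (minus strand) for CD24, chr11:35138921-35139220 (plus) for CD44, chr15:100879581-100879880 (plus) for ALDH1A3 and chr20:35171822-35172121 (plus) for PROCR. CD24 has 3 annotated starts, of which the first in the table is shown.
CD24: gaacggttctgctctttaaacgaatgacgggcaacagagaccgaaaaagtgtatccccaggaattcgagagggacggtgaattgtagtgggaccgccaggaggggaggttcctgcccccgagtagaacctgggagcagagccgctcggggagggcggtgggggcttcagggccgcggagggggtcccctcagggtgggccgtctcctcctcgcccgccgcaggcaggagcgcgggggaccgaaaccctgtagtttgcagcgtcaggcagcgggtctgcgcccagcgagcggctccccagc
CD44: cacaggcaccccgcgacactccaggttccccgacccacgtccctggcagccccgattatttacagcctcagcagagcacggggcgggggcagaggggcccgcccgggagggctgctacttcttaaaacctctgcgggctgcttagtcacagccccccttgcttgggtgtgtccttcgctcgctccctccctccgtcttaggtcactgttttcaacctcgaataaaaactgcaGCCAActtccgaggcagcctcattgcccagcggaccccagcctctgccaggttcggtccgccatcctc
ALDH1A3: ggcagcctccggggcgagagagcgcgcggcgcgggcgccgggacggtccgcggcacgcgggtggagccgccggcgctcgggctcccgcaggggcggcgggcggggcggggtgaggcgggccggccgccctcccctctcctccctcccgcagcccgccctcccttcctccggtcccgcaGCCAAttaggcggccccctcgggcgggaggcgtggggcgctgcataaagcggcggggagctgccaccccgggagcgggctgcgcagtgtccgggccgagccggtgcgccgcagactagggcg
PROCR: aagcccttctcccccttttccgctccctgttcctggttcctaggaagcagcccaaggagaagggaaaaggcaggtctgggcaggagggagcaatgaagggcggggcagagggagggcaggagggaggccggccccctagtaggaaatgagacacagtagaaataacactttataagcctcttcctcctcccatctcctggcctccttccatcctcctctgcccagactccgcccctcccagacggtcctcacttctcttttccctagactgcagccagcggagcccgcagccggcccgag
The CD44 and ALDH1A3 windows each hold 1 arm, and the CD24 and PROCR windows hold none. The table matched 8 of the 10 genes with 17 windows. An arm was found in 7 of the 17, while 45.6% of all 35116 windows of this length hold one. No member's window holds the whole palindrome, which is present in 0.0285% of all windows. Absence of these letters from a window says nothing of binding elsewhere.

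CD24 showed the widest gap between the groups among the 10 genes. Its brightest probe set, 209771_x_at, read 11.60, 11.50 and 11.54 on the wild type arrays and 6.75, 6.95 and 7.47 on the transfected arrays. The wild type values are tightly grouped, and the highest transfected array, replicate 3, is still far below them. The means were 11.55 ± 0.05 and 7.06 ± 0.37 (SD, n = 3 each), a log2 change of -4.49 (SE 0.17) or 22.5-fold lower. The probe set 266_s_at gave 9.79, 9.82 and 9.68 in wild type cells and 4.68, 4.76 and 5.27 in transfected cells. Its log2 change of -4.86 (SE 0.15), or 29.0-fold, was the largest of the 6 CD24 probe sets. The smallest change, -3.27 (SE 0.13), was that of 209772_s_at, which read 9.30, 9.31 and 9.09 against 6.23, 5.78 and 5.88. All 6 CD24 probe sets thus read between 9.65-fold and 29.0-fold lower on the transfected arrays. They share a target and are no independent measurements. Over the 6, no wild type value was under 8.97 and no transfected value above 7.47. Transfected replicate 3 had the highest of the 3 transfected values on 5 probe sets and replicate 1 on the remaining one. On 266_s_at, 208651_x_at and 208650_s_at the transfected means of 4.90, 4.88 and 5.24 lie close to the median of all probe sets, so those differences may be compressed. The names of all 6 end in _x_at or _s_at, the array's marks for probes that can also match other transcripts. Probe sets whose names lack those marks are called unmarked here. In RNA from many cells, fewer cells with a transcript and less of it in each cell cannot be told apart.

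CD44 was read by 13 probe sets, and they did not behave alike. The brightest, 212063_at, gave 12.52, 12.51 and 12.62 on the wild type arrays and 12.57, 12.55 and 12.46 on the transfected arrays. These values overlap, with a log2 change of -0.02 (SE 0.08). The 6 others with a mean above 10 separated the groups completely. Among them 204489_s_at gave 12.08, 12.15 and 12.07 against 11.27, 11.21 and 11.15, a log2 change of -0.89 (SE 0.08) or 1.85-fold lower. The probe set 1557905_s_at gave 11.75, 11.88 and 11.81 against 10.89, 10.84 and 10.85 (log2 change -0.95, SE 0.08). The remaining 4 of these changed by -0.87 to -0.91. Averaged over the 6, the level was 11.56, 11.61 and 11.60 in wild type cells and 10.70, 10.70 and 10.66 in transfected cells, a change of -0.90. The brightest probe set stood above that average by 0.96 ± 0.06 on the wild type arrays and by 1.84 ± 0.04 on the transfected ones (SD, n = 3 each). The 2 kinds of CD44 signal therefore moved apart by 0.88 on the log2 scale within the arrays. Which part of the CD44 message, and which of its splice forms, each probe set reads was not known here.

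The CD44 probe sets of middle brightness were also lower in transfected cells. The values of 229221_at were 8.53, 8.43 and 8.21 against 7.19, 7.50 and 7.34, a log2 change of -1.05 (SE 0.12) that is the largest of the 13. For 217523_at they were 7.45, 7.70 and 7.46 against 7.03, 7.33 and 6.92 (log2 change -0.44, SE 0.13). Its call ended without any single array except transfected replicate 2, and with array weights. The remaining 4 probe sets lay near or under the median and read -0.27 (234411_x_at), -0.35 (1565868_at), -0.49 (216056_at) and 0.21 (234418_x_at). In all, 9 of 13 CD44 probe sets were past the threshold of the limma fit and lower, and none was past it and higher. Over all 54613 probe sets 11.4% passed lower and 10.8% higher. The 13 share a target and the same arrays and are no independent measurements. The mean over the 13 changed by -0.60 (SE 0.07).

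**Figure D1:**
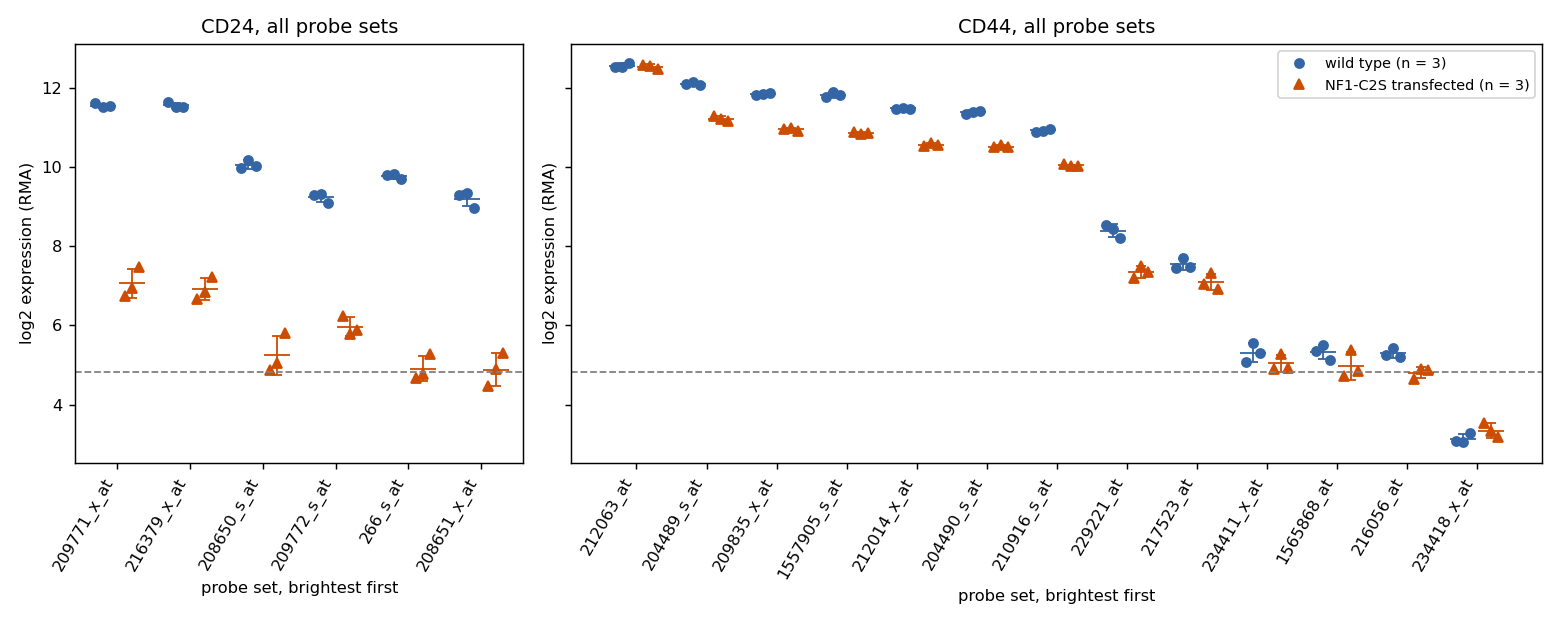
Log2 expression of all 6 CD24 probe sets (left) and all 13 CD44 probe sets (right), brightest first; circles are the 3 wild type arrays, triangles the 3 NF1-C2S transfected arrays, bars the mean ± SD, and the dashed line the median of all probe sets, 4.82. Every CD24 probe set separates the groups by 3.27 or more, whereas the brightest CD44 probe set overlaps and the next 6 are lower in transfected cells by 0.87 to 0.95.

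The balance of CD44 to CD24 moved toward CD44 on the transfected arrays. It was taken within each array as the log2 value of the brightest CD44 probe set minus that of the brightest CD24 probe set. Different probe sets bind RNA with different strength, so the level of this difference has an unknown offset and only its change is read. The balance was 0.92, 1.01 and 1.08 on the wild type arrays and 5.82, 5.60 and 4.99 on the transfected arrays. Every transfected value exceeded every wild type value, and replicate 3 had the lowest of the transfected ones. The group means were 1.00 ± 0.08 and 5.47 ± 0.43 (SD, n = 3 each), a change of 4.47 on the log2 scale or 22.1-fold in the ratio. The choice of probe sets set the size: over all 78 pairs of a CD44 and a CD24 probe set the change ran from 2.22 to 5.07, with a median of 3.89. All 3 transfected arrays lay above all 3 wild type arrays in 78 of the 78 pairs, which share the same 6 arrays. Every CD24 probe set fell by at least 3.27 and no CD44 probe set by more than 1.05. The count thus restates the fall of CD24, known when the genes were chosen, and is no further evidence. With the mean over each gene's probe sets the change was 3.80. For the brightest probe sets the shift is made up of a CD24 change of -4.49 and a CD44 change of -0.02. No CD44 probe set was past the threshold and higher, so the balance moved toward CD44 without a higher CD44 signal.

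**Figure D2:**
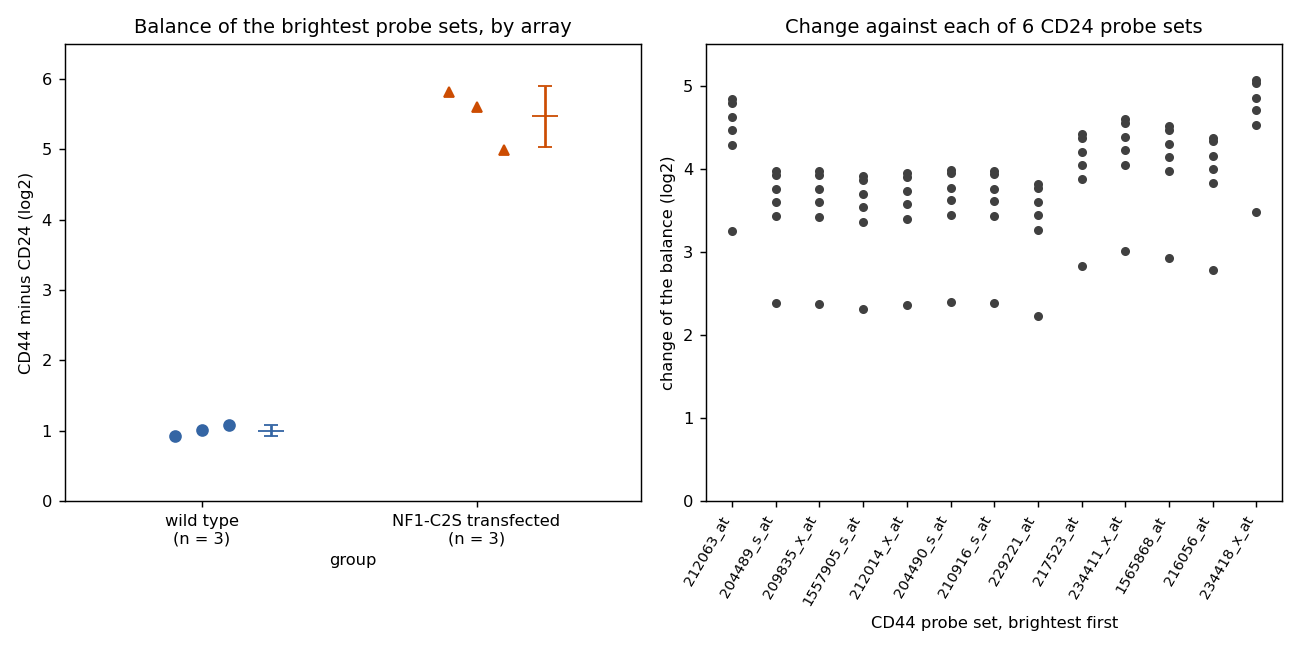
Left, the within-array difference of the brightest CD44 and CD24 probe sets on the log2 scale for the 3 arrays of each group, with mean ± SD beside the points. Right, the change of that difference (transfected minus wild type) for each CD44 probe set against each of the 6 CD24 probe sets; all 78 points lie between 2.22 and 5.07, above 0.

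Among the ALDH1 genes, ALDH1A3 carried a strong signal in both groups and was higher in transfected cells. Its probe set 203180_at gave 12.94, 12.90 and 13.01 on the wild type arrays and 13.62, 13.53 and 13.57 on the transfected arrays. The groups do not overlap, and the means of 12.95 ± 0.06 and 13.57 ± 0.05 (SD, n = 3 each) differ by 0.62 (SE 0.08), or 1.54-fold. Signals this close to the top of the scale, where the highest value on any array was 14.62, can be compressed too. The other ALDH1A3 probe set, 1558649_at, was under the median in both groups and read 4.06, 3.99 and 4.16 against 4.34, 4.51 and 4.40 (log2 change 0.35, SE 0.09). It no longer passed the threshold without wild type replicate 1 or 2 or transfected replicate 2 or 3, or with a trended robust variance prior.

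ALDH1A1 and ALDH1A2, which catalyse the same oxidation, were near background. ALDH1A1 read 4.04, 4.34 and 4.32 on the wild type arrays and 3.60, 3.27 and 3.13 on the transfected arrays, with no overlap and a log2 change of -0.90 (SE 0.14). Both means, 4.23 ± 0.17 and 3.33 ± 0.24 (SD, n = 3 each), are under the median of all probe sets, so no fold is given. The brighter ALDH1A2 probe set, 207015_s_at, gave 4.88, 4.93 and 5.15 against 4.88, 4.99 and 4.97, which overlap (log2 change -0.04, SE 0.09). The dimmer one, 207016_s_at, changed by 0.07 (SE 0.11).

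PROCR, the endothelial protein C receptor and a marker of mammary stem cells, had the largest rise among the 10 genes. Its only probe set gave 7.48, 7.58 and 7.60 on the wild type arrays and 9.22, 9.34 and 9.10 on the transfected arrays. The groups are far apart, at 7.55 ± 0.06 and 9.22 ± 0.12 (SD, n = 3 each), a log2 change of 1.67 (SE 0.09) or 3.18-fold. MME, a membrane metalloendopeptidase of myoepithelial cells, was higher as well. Its probe set 203435_s_at read 6.06, 6.01 and 6.11 against 6.60, 6.69 and 6.96 (log2 change 0.69, SE 0.11, or 1.61-fold), with no overlap. The other MME probe set, 203434_s_at, gave 4.87, 5.36 and 5.61 against 5.04, 6.0 and 6.41, which overlap (log2 change 0.54, SE 0.34). On that probe set each transfected array was above the wild type array of the same number, and it passed the threshold with the replicate number as a block or without transfected replicate 1.

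EPCAM, an epithelial adhesion molecule, lay little above the median. It read 5.41, 6.11 and 5.61 on the wild type arrays and 4.50, 5.01 and 5.38 on the transfected arrays, a log2 change of -0.75 (SE 0.25). The groups do not overlap, by a gap that is small beside the spread within each, and the change did not pass the threshold. It did pass with the replicate number as a block, with a trended robust variance prior and without transfected replicate 3. THY1, a GPI-anchored surface protein of mesenchymal cells, gave 5.47, 5.41 and 5.30 against 5.79, 5.23 and 5.13 on its brightest probe set. Those values overlap, and the 3 THY1 probe sets changed by -0.01, -0.10 and -0.03 with SE of 0.17, 0.14 and 0.15. PROM1, a membrane protein of cell protrusions, read 2.96, 3.13 and 2.91 against 3.28, 2.96 and 3.22, near the bottom of the scale (log2 change 0.15, SE 0.11).

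**Figure D3:**
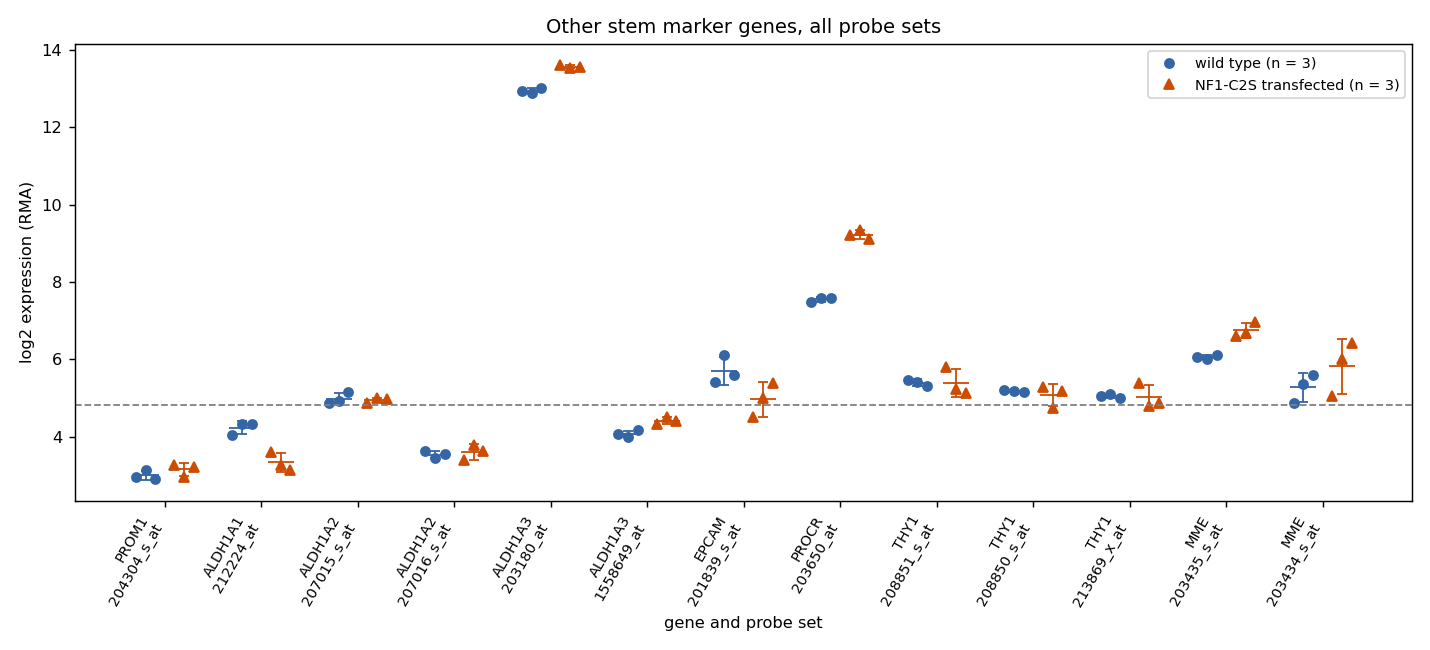
Log2 expression of the 13 probe sets of the other 8 genes; circles are the 3 wild type arrays, triangles the 3 NF1-C2S transfected arrays, bars the mean ± SD, and the dashed line the median of all probe sets, 4.82. ALDH1A3 (203180_at, 12.95 and 13.57) and PROCR (7.55 and 9.22) are higher in transfected cells, while PROM1, ALDH1A1 and ALDH1A2 lie near or under the line.

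Of the 32 probe sets, 16 were past the threshold (limma, Benjamini-Hochberg adjusted p under 0.05) and lower, 4 were past it and higher, and 12 were not past it. Over all 54613 probe sets 22.2% passed, 11.4% lower and 10.8% higher. The groups did not overlap on 21 of the 32, as was so for 34.9% of all probe sets. Most of these counts belong to CD24 and CD44, with 19 of the 32 probe sets, so they do not describe 10 genes. Each gene was also read by its brightest probe set, with the call from the same fit of all probe sets. By it 2 genes were lower (CD24 and ALDH1A1), 3 higher (ALDH1A3, PROCR and MME) and 5 not past the threshold. ALDH1A1 was under the median of all probe sets in both groups. Among the 5 is CD44, although 9 of its 13 probe sets were past the threshold and lower. The median change of the 10 genes was -0.02. In the separate fit of all 19775 genes, which did not give these calls, 31.9% passed, 16.9% lower and 15.0% higher. A total of 27 of the 32 probe sets had a mean over the 6 arrays at or above the median of all probe sets, and the other 5 were under it in both groups.

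**Figure D4:**
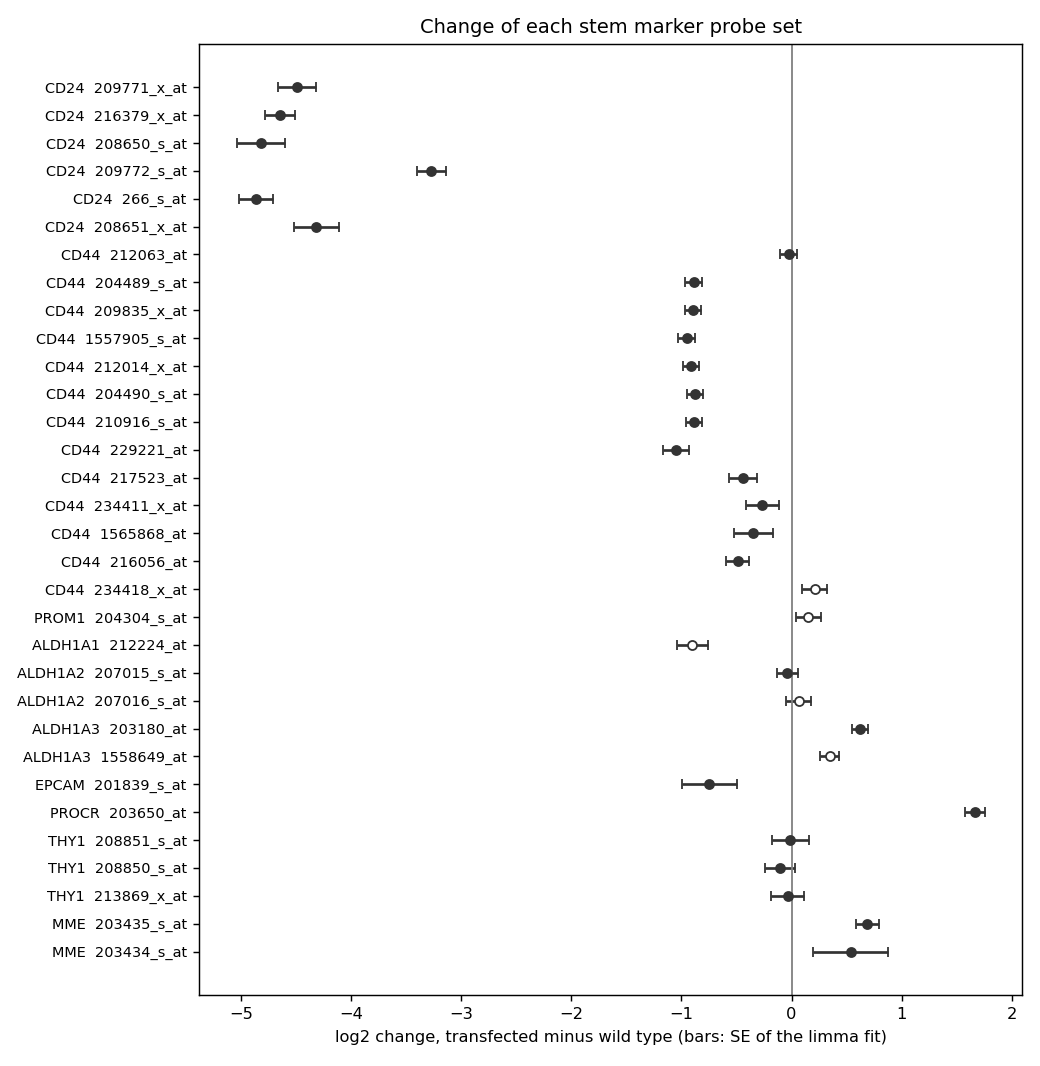
Log2 change (transfected minus wild type) of each of the 32 probe sets with the SE of the limma fit; open circles mark the 5 probe sets under the median of all probe sets in both groups. The 6 CD24 probe sets form a block from -4.86 to -3.27, most CD44 probe sets lie between -1.05 and -0.27, and PROCR stands alone at 1.67.

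Genes that act with the markers were described from 10 lists of 178 genes, of which 165 had a probe set of their own. In these lists 51 genes fell, 30 rose and 84 did not pass. Over all 19775 genes 31.9% passed, 16.9% lower and 15.0% higher. The list genes had a median change of -0.03.

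The list of 16 measured hyaluronan genes holds genes that make, degrade or bind hyaluronan, the ligand of CD44. Of these 6 fell, 1 rose and 9 did not pass (median change -0.16). Genes that make hyaluronan and genes that degrade it are both among those that fell. The hyaluronan receptor HMMR, which also acts on the mitotic spindle, fell from 10.37 ± 0.23 to 5.26 ± 0.56. The synthase HAS3 read 10.21, 10.28 and 10.18 on the wild type arrays and 7.57, 7.25 and 6.75 on the transfected arrays. HAS3 was thus 8.19-fold lower (-3.03, SE 0.19; limma adjusted p = 3.17e-05), and averaged over its probe sets it changed by -1.62. UGDH, which makes a sugar precursor of hyaluronan, fell by 0.96. TNFAIP6, a secreted hyaluronan-binding protein, was the member that rose, from 7.79 ± 0.24 to 9.13 ± 0.14 (adjusted p = 0.000227). Among 16 measured partners, sheddases and splicing regulators of CD44, 7 rose, 1 fell and 8 did not pass (median 0.20). The sheddases ADAM10 and ADAM17 rose by 1.56 (SE 0.09, adjusted p = 2.37e-05) and 0.90, and PSEN2, a catalytic subunit of gamma-secretase, rose by 1.09. Ezrin (EZR), which ties CD44 to actin, fell by 0.66, or by 0.35 on its brightest unmarked probe set.

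Of 8 proteins that bind CD24 or signal beneath it, 4 rose, 1 fell and 3 did not pass (median 0.21). The adhesion molecule L1CAM fell from 9.93 ± 0.27 to 8.56 ± 0.11 (adjusted p = 0.000254). The kinases SRC, FYN and LYN rose by 1.10, 0.59 and 0.37. SRC changed by 0.17 when averaged over its probe sets, with adjusted p = 0.272, and FYN by -0.06 on its brightest unmarked one, with adjusted p = 0.755. The call of LYN ended without wild type replicate 1 or 3 or transfected replicate 2 (adjusted p = 0.0617, 0.0573 and 0.0557). Genes that build and attach the GPI anchor, which holds CD24 and THY1 on the surface, were mostly lower. Among the 26 on the array 14 fell and 2 rose, 10 not passing, with a median of -0.38. PIGK, the protease subunit of the GPI transamidase, fell from 9.68 ± 0.11 to 8.39 ± 0.10 (SE of the change 0.09, limma adjusted p = 4.36e-05), and by 0.64 averaged over its probe sets. PIGC, PIGN and PGAP1 fell by 0.95, 0.88 and 0.84, where PIGC read -0.31 on its brightest unmarked probe set (adjusted p = 0.148) and PGAP1 -0.52 on average over its probe sets.

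The retinoid list, which surrounds the ALDH1 step, went both ways. Of 20 measured genes 6 fell, 3 rose and 11 did not pass (median 0.03). RDH10, which makes the retinaldehyde that ALDH1 enzymes use, went from 8.08 ± 0.08 down to 6.82 ± 0.19 (-1.25, SE 0.11, adjusted p = 0.000114). CYP26B1, which breaks retinoic acid down, went from 8.39 ± 0.24 down to 7.01 ± 0.09 (-1.38, SE 0.13, adjusted p = 0.000158). Averaged over their probe sets, RDH10 and CYP26B1 changed by -0.76 and -0.81. Transglutaminase TGM2, a retinoic acid target, rose from 5.03 ± 0.15 to 7.29 ± 0.18 (2.26, or 1.06 averaged over its probe sets), and the retinol carrier RBP4 rose by 0.82 (0.46 averaged). Among 16 other aldehyde dehydrogenases 2 rose, 2 fell and 12 did not pass (median 0.13). The mitochondrial ALDH2 rose from 8.22 ± 0.04 to 9.08 ± 0.11 (adjusted p = 0.000148). ALDH6A1 rose by 0.45, and ALDH1B1 and ALDH7A1 fell by 0.33 and 0.26, but none of these 3 calls was firm. That of ALDH6A1 ended without wild type replicate 1 or 3 or transfected replicate 3 (adjusted p = 0.0626, 0.0647 and 0.0598), and it changed by 0.04 on its brightest unmarked probe set. That of ALDH1B1 ended without wild type replicate 1 or 2 or transfected replicate 2 or 3 (adjusted p from 0.0678 to 0.114). That of ALDH7A1 ended without each array except wild type replicate 3 (adjusted p from 0.0767 to 0.114).

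Of 11 measured genes tied to EPCAM, 5 fell, 1 rose and 5 did not pass (median -0.15). The cofactor FHL2 fell by 1.55, the tetraspanin CD9 by 1.01 (0.35 averaged over its probe sets) and the transcription factor LEF1 by 0.45. Claudin-1 (CLDN1) rose by 0.41, a call that ended without transfected replicate 2 (adjusted p = 0.0528) and when averaged over its probe sets (adjusted p = 0.0507). In the list around PROCR, of 10 measured genes of the protein C and tissue factor pathways, 3 rose, 4 fell and 3 did not pass (median -0.12). Thrombomodulin (THBD), which acts with PROCR to activate protein C, read 4.29 ± 0.50 and 7.43 ± 0.28 (a rise of 3.14, SE 0.25, adjusted p = 8.42e-05), or 1.98 averaged over its probe sets. TFPI, the inhibitor of the tissue factor pathway, rose from 4.29 ± 0.34 to 6.97 ± 0.08 (2.68, or 1.74 averaged over its probe sets). Tissue factor (F3) fell from 7.08 ± 0.22 to 5.78 ± 0.42, and the thrombin receptor F2R fell from 7.60 ± 0.24 to 5.87 ± 0.39. On its brightest unmarked probe set F2R read -0.33 (adjusted p = 0.181).

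Of 9 measured surface peptidases related to MME in function, 2 rose, 2 fell and 5 did not pass (median -0.08). DPP4 fell from 7.90 ± 0.25 to 4.76 ± 0.48, at least 8.85-fold since its transfected mean lies below the overall median. PHEX fell by 0.42. ECE1 and ANPEP rose by 0.53 and 0.36, calls that ended without single arrays: ECE1 without wild type replicate 1 or 2 or transfected replicate 2 (adjusted p from 0.0552 to 0.0658), ANPEP without any array but wild type replicate 3 (0.0561 to 0.126). ANPEP changed by 0.04 on its brightest unmarked probe set. Among 33 other genes used as stem or progenitor markers 10 fell, 5 rose and 18 did not pass (median -0.05). The integrin ITGA6 fell from 10.16 ± 0.07 to 8.87 ± 0.13 and the transcription factor SOX9 from 9.18 ± 0.11 to 8.04 ± 0.10. SOX2 fell by 1.18 from a level of 5.39 (0.37 averaged over its probe sets). The chromatin protein HMGA2 rose by 1.08, or by 0.34 averaged, and read 0.40 on its brightest unmarked probe set (adjusted p = 0.0798).

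The genes whose profile came nearest to that of CD24 were sought over the 6 arrays, with each gene's values taken relative to its own wild type mean. The measure was the root mean square difference in log2 units, and it is dominated by the size of the difference between the groups. Over all genes other than the members, the 5 nearest were MAT2B (0.18), CCNG1 (0.21), CRYBG1 (0.23), PRRX1 (0.24) and S100P (0.26). MAT2B, a regulatory subunit of methionine adenosyltransferase, gave 10.23, 10.18 and 10.15 on the wild type arrays and 5.05, 5.37 and 5.93 on the transfected ones. Its transfected replicate 3 was the highest of the 3, as for CD24, a likeness that the choice by nearness favours. CRYBG1 gave 8.05, 8.24 and 8.26 against 3.34, 3.87 and 3.69, with replicate 2 the highest.

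CRYBG1 is also a neighbour of CD24 on chromosome 6. Of the 20 nearest measured genes, 10 on each side, 6 fell and 1 rose, and their median change was -0.17. Over all 19775 genes 31.9% passed, 16.9% lower and 15.0% higher, which is the share to set beside each neighbour count here. CRYBG1, the fifth on 1 side, changed by -4.55 (SE 0.14, limma adjusted p = 2.37e-06), close to the -4.49 of CD24. That closeness is what it was picked for above. Its transfected mean of 3.63 lies under the median of all probe sets, so its change may be compressed. Of the 4 genes between CRYBG1 and CD24, RTN4IP1 changed by -0.29 and QRSL1 by -0.80. The other two, LOC105377924 and LINC02532, were under the median of all probe sets in both groups, where a change would be compressed. The adjacent MTRES1 on the other side fell by 0.64 and PDSS2 by 0.88. CD44, on chromosome 11, had 4 neighbours that fell and 5 that rose. The 4 that fell (LMO2, CAT, EHF and PDHX) lie on 1 side of it and the 5 that rose (FJX1, TRIM44, LDLRAD3, COMMD9 and TRAF6) on the other. The adjacent PDHX, a subunit of the pyruvate dehydrogenase complex, changed by -0.85 (SE 0.07, adjusted p = 7.53e-05), near the -0.87 to -0.95 of most bright CD44 probe sets. Around ALDH1A2, on chromosome 15, 15 of 20 neighbours rose and none fell, with a median of 1.12, while ALDH1A2 itself stayed near background. ADAM10, named above, is 1 of these 15. Around the other members the median change of the neighbours was between -0.05 (ALDH1A1) and 0.21 (ALDH1A3). These neighbours were named after their values were seen, and the part of gene position in the results was not tested.

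**Figure D5:**
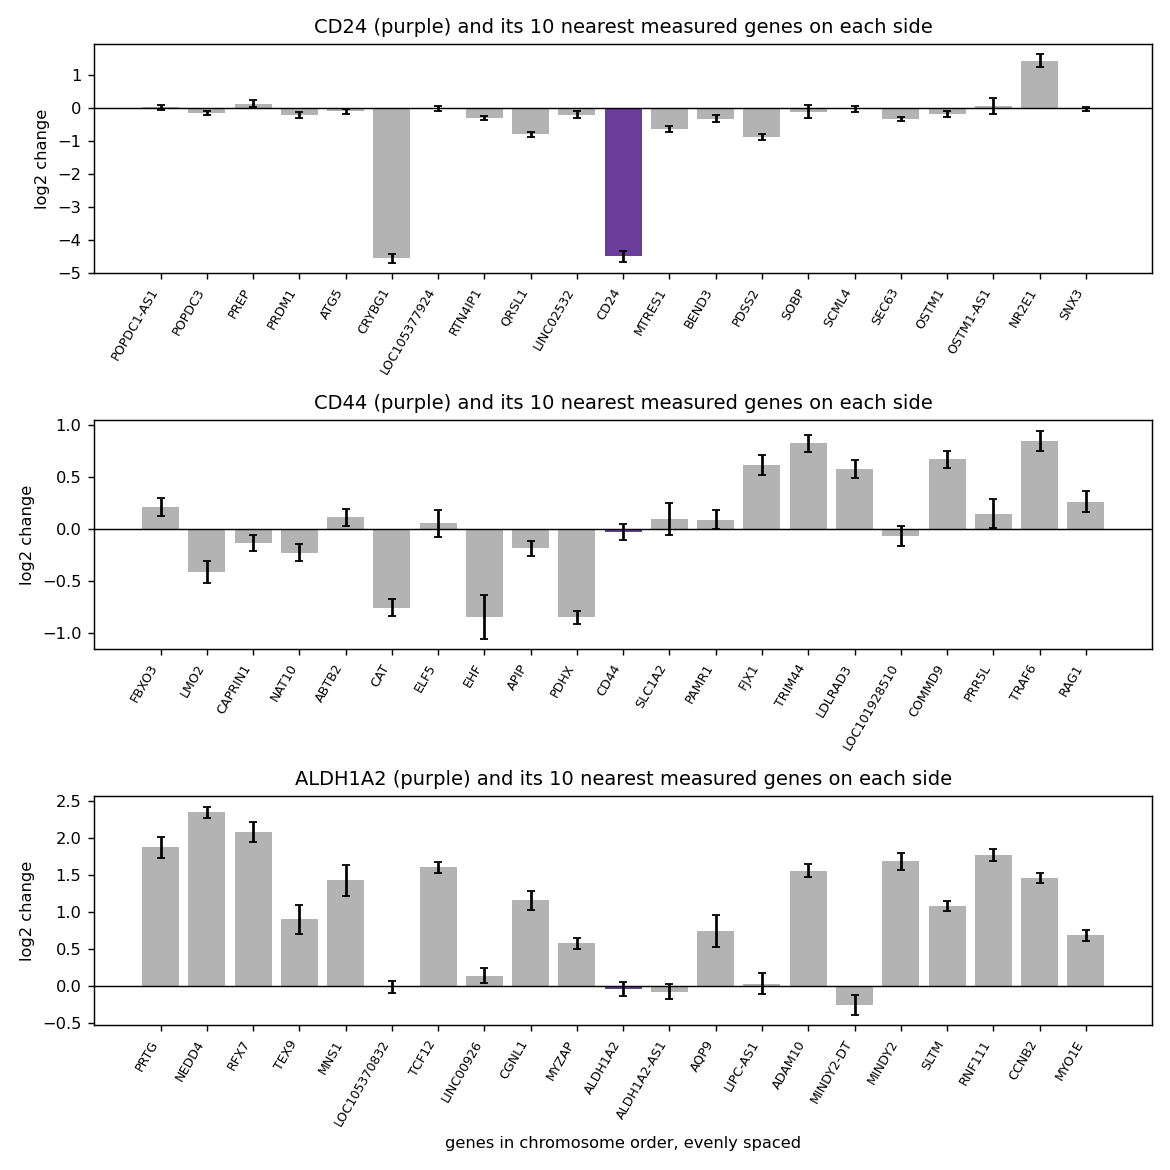
Log2 change (transfected minus wild type, bars ± SE of the limma fit) of CD24, CD44 and ALDH1A2 by their brightest probe set (purple) and of the 10 nearest measured genes on each side, in chromosome order and evenly spaced; the axes differ in scale. CRYBG1 (-4.55, transfected mean under the median of all probe sets) lies close to CD24 (-4.49). The genes past the threshold on the 2 sides of CD44 differ in direction. Of the 20 neighbours of ALDH1A2 15 rose and none fell, whereas of all genes 15.0% rose and 16.9% fell.

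The labelled cell type was checked against marker lists. Of 8 genes of mesenchymal tumour lines, vimentin (VIM) read 13.54 ± 0.01 and 13.01 ± 0.05 and LGALS1 13.32 ± 0.11 and 13.36 ± 0.03, while SPARC was near background. This list had 4 genes lower and 4 not past the test (CDH2, SPARC, AXL and LGALS1). Of the CD44 probe sets 9 of 13 were past the threshold and lower, against 11.4% of all probe sets, while the brightest was not. VIM changed by -0.53, ZEB1 by -0.41, CAV1 by -1.73 and S100A4 by -1.16, and the part of these genes in the CD44 result was not tested. Its summed log2 level was 75.90 to 76.43 on the wild type arrays and 72.33 to 72.43 on the transfected arrays. Of the luminal markers CDH1 (3.42 and 3.44), KRT19 and PGR were under the median, although the cells are labelled epithelial. The other luminal genes were above that median in both groups. KRT18 read 12.55 ± 0.11 and 11.62 ± 0.07, KRT8 6.59 and 6.64, and ESR1 5.88 and 5.85. Of 10 luminal genes GATA3 and KRT18 fell and ELF3 rose, and of 7 basal genes SFN and ACTA2 fell. GATA3 read -0.30 on its brightest unmarked probe set (adjusted p = 0.099). Since CD24, THY1, MME and PROCR also mark other cells, lists for fibroblasts, endothelium and leukocytes were read. Genes under the median in both groups numbered 5 of 8 fibroblast, 5 of 8 endothelial and 4 of 6 leukocyte genes, among them LUM (3.16 and 3.05), CDH5 (3.55 and 3.62) and PTPRC (3.65 and 3.86). Others of these lists were above it in both groups: COL1A1 (6.60 and 6.44), PECAM1 (5.39 and 5.31), TEK (5.38 and 5.19), CD14 (5.77 and 6.59) and ITGAM (6.25 and 5.04). The part of other cell types in the results was not tested. The summed level of the 6 leukocyte genes was 27.34 to 27.87 in wild type and 26.97 to 27.57 in transfected cells, that of the 8 fibroblast genes 37.54 to 38.81 and 36.38 to 37.62, and that of the 8 endothelial genes 35.36 to 36.25 and 35.03 to 35.23. In these 3 lists FAP (-1.33), ERG (-0.69) and ITGAM (-1.21) fell and CD14 (0.83) rose, and the other genes did not pass. ERG and ITGAM read -0.10 and -0.11 on their brightest unmarked probe sets (adjusted p = 0.534 and 0.718).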

How the data were processed

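RNA on 6 arrays was analysed, 3 per group. What the authors deposited is a log2 value for each of 54675 probe sets and each array, from RMA per the submitters' processing notes. RMA subtracts background, brings the arrays to a common distribution and combines the probes of a set. The sources used here do not give its version or a genome build. Arrays have no read depth, so precision depends on how many there are. The median SD over probe sets was 0.110 in wild type and 0.119 in transfected arrays. On wild type replicate 3, 6354 values carry more than 2 decimals.

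The 62 control probe sets were left out. Probe sets were named through the platform annotation: 41091 name 1 gene, 1801 several and 11721 none. Of the first, 41037 matched RefSeq genes of GRCh38.p14 by identifier, which gave current symbols and gene order. All 54613 probe sets were fitted with limma 3.58.1 in R 4.3.3 (two-sided, Benjamini-Hochberg over all, threshold 0.05) with no covariate. Related lists were tested in the same way over 19775 genes, each by the brightest probe set that names only that gene. A fold is given as at least that size where the dimmer group lies below the overall median, and not at all where both are. The fit was tested on simulated data.

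The members and the lists were chosen with earlier results of these data known. The text names every member, from each list up to 4 genes that passed the threshold with groups that do not overlap, by size of change, and the 5 genes nearest to CD24. Arrays of the same replicate number deviated together from their group means (correlations over probe sets 0.398, 0.238 and 0.140, all above 0.1). For different numbers the correlations were -0.277 to 0.142, a range that holds the value of replicate 3. The numbers may thus pair the arrays, less clearly for replicate 3. The main fit did not use them, and a fit with the number as a block was an alternative. Other alternatives were quantile normalization, median centring, array weights, a trended robust variance prior, leaving out each array, leaving out dim probe sets, the mean of a gene's probe sets, probe sets not ending in _x_at or _s_at, and subtracting the median change of 20 neighbouring genes. No sequences or positions of the array's probes were used here.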

Additional observations from a re-analysis of the deposited data

How the results depend on the processing

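The fall of CD24 and the balance of CD44 to CD24 kept their direction under all alternatives run for them. No wild type CD24 value was under 8.97 and no transfected one above 7.47. Leaving out an array could therefore not reverse the fall, and only the sizes are informative. All 6 CD24 probe sets end in _x_at or _s_at, so neither result could be read on unmarked probe sets. CD24 changed by -4.70 to -4.34 when each array was left out, and the balance by 4.29 to 4.71. A replicate block cannot move a difference of group means in this balanced design, so the CD24 and CD44 changes and the balance were -4.49, -0.02 and 4.47 with it by construction, and only its calls bear on the results. The size of the balance depended on the probe sets: it was 3.80 for the means of all probe sets. The brightest CD44 probe set changed by -0.0450 to 0.0117 without single arrays, but CD44 read -0.60 averaged over its probe sets, and -0.12 relative to the median change of its neighbours. The count of member probe sets past the threshold, 20, was 18 to 20 without single arrays, 22 with the replicate block and 18 of 27 without dim probe sets. The count of list genes past it, 81, was 66 to 72 without single arrays and 84 with the block, 80 of them among the 81. It was 50 of 134 measured with unmarked probe sets (names not ending in _x_at or _s_at), where fewer genes were measured. In the main fit 22.2% of all probe sets and 31.9% of all genes passed. The shares of all features under the alternatives are not given here. These counts therefore do not tell whether the members or lists moved apart from the rest. Of 53 genes named from the lists, 38 kept their call under each alternative run and 15 lost it under at least 1. FYN alone turned, to -0.06 on its brightest unmarked probe set; the cause was not tested. Genes close to background, which include PROM1, ALDH1A1 and ALDH1A2, can differ by more than these values show.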
